A study of Mus musculus with 17 samples.

Results

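The 10 genes described here encode the core of transforming growth factor beta (TGF-beta) and activin signalling: the ligand genes Tgfb1, Tgfb2, Tgfb3 and Inhba, the receptor genes Tgfbr1, Tgfbr2 and Tgfbr3, and the intracellular mediators Smad3, Smad4 and Smad7. They were chosen by gene name, and all 10 names were found once each among the 43346 genes of the table. Bulk RNA sequencing of mouse bile duct was done for work on extrahepatic cholangiocarcinoma, the tumour of the duct outside the liver. All 17 samples carried the same tissue label, and the labels gave no genotype, strain, treatment, time, age, sex or tumour status that would set samples apart. Each count column had a name made of a code and a library number (R62848_1), with 6 codes of which 5 covered 3 libraries and 1, R63494, covered 2. The sources used here do not say what a code stands for, nor whether libraries of 1 code came from separate animals, so p-values measure only the spread between these libraries, which may be technical.

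TGF-beta ligands are secreted in a latent form bound to their own propeptide and are released by integrins and other factors. An active ligand binds the type II receptor, encoded by Tgfbr2, which then phosphorylates the type I receptor, encoded by Tgfbr1. The type I receptor phosphorylates SMAD3 and SMAD2, which join SMAD4 and enter the nucleus, and SMAD7 is an induced inhibitor that acts on the receptor. Activin A, a dimer of the Inhba product, uses its own receptors and converges on the same SMADs. In bile duct and pancreas the pathway is known for restraining epithelial growth and for driving matrix production by fibroblasts, and SMAD4 and TGFBR2 are known tumour suppressor genes in cancers of these ducts.

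Library totals ran from 16400556 to 24152314 counts, and no pair of libraries differed by sampling noise alone (lowest chi-square per degree of freedom 3.98). Markers of cholangiocytes, the epithelial cells of bile ducts, had counts in all 17 libraries for 11 of 11 genes, with a summed level of 7168 to 9904 CPM (counts of a gene per 1e+06 counts of the tested genes, scaled by TMM factors). The 6 hepatocyte genes summed to 328 to 1076 CPM, with median levels of 407 CPM for Ttr and 193 CPM for Hnf4a, 9.52 CPM for Cyp2e1, 3.95 CPM for Alb and 0.671 CPM for Apoa1, and with no count of Serpina1a in 9 libraries. Pancreatic acinar enzyme genes stood apart in 1 code: 9 of them summed to 5044, 20399 and 116916 CPM in R62850_1, R62850_2 and R62850_3, against at most 32.2 CPM elsewhere. The fibroblast markers, 10 genes, also divided the codes. They summed to 8543 to 9033 CPM in R62848 and 8001 to 9703 CPM in R63500. In R63494 they summed to 2417 to 2687 CPM, and in the other 3 codes to 3879 to 5589 CPM. Abundant genes weigh most in such a sum, and Col3a1 and Col1a1 had the highest medians of the 10 (1846 and 1094 CPM).

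Per kilobase of gene length, the type II receptor was the most abundant of the 10 genes. The median RPKM (CPM per kilobase of the table's gene length) was 45.9 for Tgfbr2, 23.1 for Tgfb1, 19.2 for Smad4, 17.1 for Tgfbr1, 15.6 for Smad3, 10.2 for Tgfb3 and 8.15 for Smad7. Tgfbr3, Tgfb2 and Inhba were low, with median RPKM of 2.22, 2.18 and 1.57. Tgfbr2 exceeded Tgfb1 in 17 of 17 libraries, Smad3 exceeded Tgfb3 in 17, and Smad7 exceeded Tgfbr3 in 17. The order of the other neighbours did not hold in every library: Tgfb1 was above Smad4 in 14, Smad4 above Tgfbr1 in 14, Tgfbr1 above Smad3 in 15, Tgfb3 above Smad7 in 13, Tgfbr3 above Tgfb2 in 10 and Tgfb2 above Inhba in 10. All 10 genes passed the filter on low counts, and the lowest count of any of them in a library was 12, for Inhba.

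**Figure D1:**
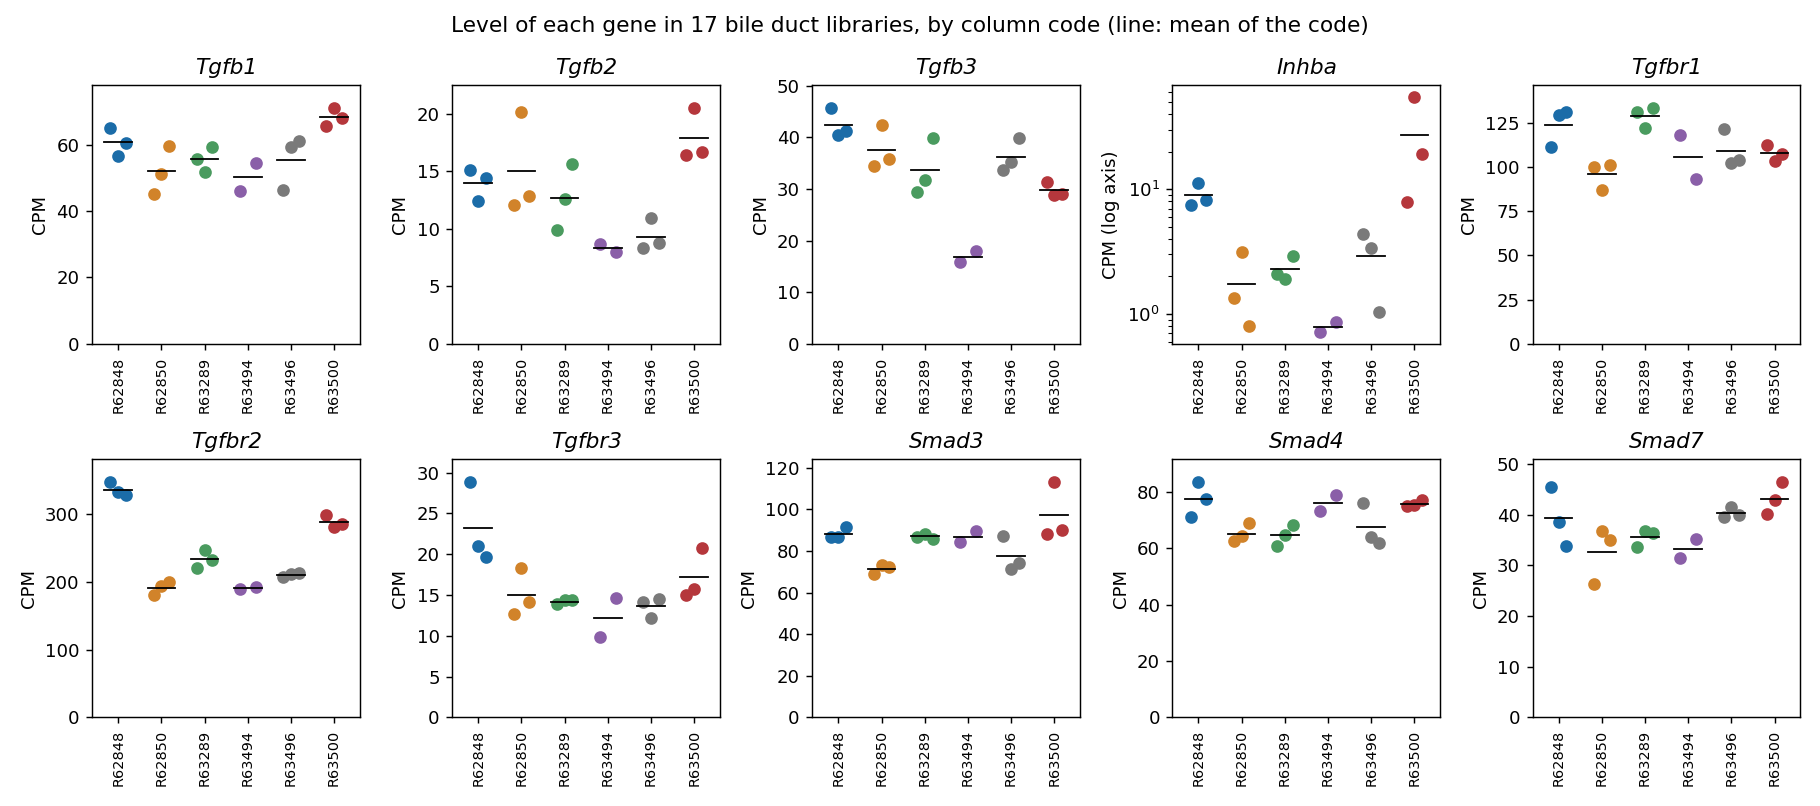
TMM-scaled CPM of each of the 10 genes in each library, by column code, with a line at the mean of the code; the axis of Inhba is logarithmic. Tgfbr2 separates R62848 from every other code, Tgfb3 is lowest in the 2 libraries of R63494, and Inhba reaches 55.0 CPM in R63500_2.

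With a single tissue label, the one comparison that the table's headers allow is between column codes, and it asks whether libraries of different codes differ more than libraries that share one. By edgeR's quasi-likelihood F test with Benjamini-Hochberg adjustment over 19412 genes, 9 of the 10 genes differed between codes at an adjusted p below 0.05, where 42.2% of all genes tested did so. Each such p-value is for any difference among the 6 codes; the highest and lowest codes given beside it describe the size, and no pair of codes was tested alone. With the further condition that the highest code mean be at least 2 times the lowest, 3 genes passed (Tgfb2, Tgfb3 and Inhba), where 18.4% of all genes did so. The fold between the highest and the lowest code had a median of 1.55 over the 10 genes and 1.65 over all genes tested. Differences between codes held a median of 70.2% of the variance of log2 CPM over the 10 genes and 58.6% over all genes tested. In tissue RNA, fewer cells of a type and less RNA per cell cannot be told apart. For Tgfb1, Tgfb3, Inhba and Tgfbr2, libraries of a code or codes are described below as lying apart from all others. The share of all genes tested with such a gap was not counted, so it may be common.

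The code with the highest mean was R63500 for 5 of the 10 genes (Tgfb1, Tgfb2, Inhba, Smad3 and Smad7) and R62848 for 4 (Tgfb3, Tgfbr2, Tgfbr3 and Smad4); over all genes tested these codes were highest for 18.3% and 18.6%. The code with the lowest mean was R63494 for 6 of the 10 (Tgfb1, Tgfb2, Tgfb3, Inhba, Tgfbr2 and Tgfbr3) and R62850 for 3 (Tgfbr1, Smad3 and Smad7), against 23.3% and 19.9% of all genes tested. R62848 and R63500 were also the codes with the highest summed fibroblast markers, and R63494 the one with the lowest; the part of these cells in the levels of the 10 genes was not tested.

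**Figure D2:**
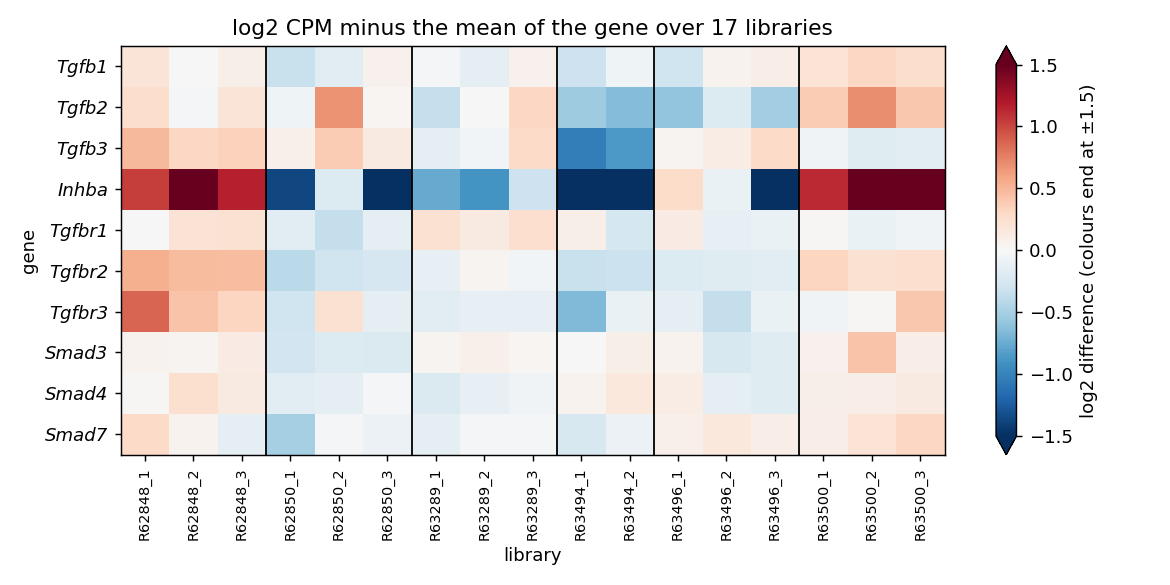
log2 CPM of the 10 genes (rows) in the 17 libraries (columns), each as the difference from the mean of the gene, with black lines between codes and colours ending at a log2 difference of 1.5 in either direction. Inhba carries the strongest colours, and Smad4, whose highest library is 1.37-fold above its lowest, the palest.

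Among the ligands, Tgfb1 was the most abundant and steadiest. The gene (ENSMUSG00000002603; mm10 chromosome 7, from 25687002 to 25705077) encodes TGF-beta 1, the form made by many stromal and immune cells. It stood at 65.8, 70.9 and 68.2 CPM in R63500, against 46.0 and 54.5 CPM in R63494. In the remaining 4 codes it lay between 45.1 and 64.9 CPM, so each R63500 library was above every library of another code. The code means differed by up to 1.36-fold, between R63500 and R63494, and the test over all codes gave an edgeR adjusted p of 0.0355. Without the whole code R63500 the fold was 1.21 (adjusted p = 0.412), and without R63494 or R62850 the call was also lost (adjusted p = 0.0686 and 0.0509). The call was lost in 9 of 17 repeats with 1 library left out, with adjusted p-values of 0.0503 to 0.111; the libraries were R62848_3, R62850_1, R62850_2, R63289_1, R63289_2, R63494_1 and each of the 3 of R63500.

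Tgfb3 (ENSMUSG00000021253; chromosome 12, from 86056744 to 86079041), which encodes the ligand TGF-beta 3 of mesenchymal tissues, was set apart by its low level in R63494. It stood at 45.6, 40.4 and 41.3 CPM in R62848, against 15.9 and 17.9 CPM in R63494. The lowest library of any other code, R63500_2, had 28.8 CPM, so R63494 did not overlap the rest. R62848 was 2.51-fold above R63494 (edgeR adjusted p = 8.27e-06). Without R63494 the fold between the remaining codes was 1.43 (adjusted p = 0.0170). Unlike Tgfb1, Tgfb3 was not high in R63500, where it averaged 29.7 ± 1.40 CPM (SD, n = 3) beside summed fibroblast markers as high as those of R62848. The single markers did not all follow that sum. Col1a1 averaged 2967 CPM in R63500 and 2637 CPM in R62848, whereas Dcn averaged 584 and 815 CPM, with 694 CPM in R62850. The other fibroblast markers are not given by code here, so these values do not describe the list. The part of fibroblasts in the Tgfb3 levels was not tested. The span of Tgfb3 overlaps that of Ttll5, a gene on the opposite strand with 54.8% as many counts in all libraries together. The exons of the pair share 0 of 3383 exon bases of Tgfb3 in GENCODE M21, which may not be the annotation the authors used.

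Tgfb2 (ENSMUSG00000039239; chromosome 1, from 186622792 to 186705989), the ligand TGF-beta 2, was the scarcest of the TGF-beta ligands per length. It stood at 16.4, 20.5 and 16.7 CPM in R63500, against 8.68 and 7.96 CPM in R63494. R63496 was also low, with 8.30, 10.9 and 8.76 CPM, and R62850_2 was as high as the libraries of R63500, with 20.2 CPM beside 12.1 and 12.8 CPM in its code. R63500 was 2.15-fold above R63494 (edgeR adjusted p = 0.00228), and this fold was 1.99 without R63500_2.

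Inhba (ENSMUSG00000041324; chromosome 13, from 16011851 to 16027211), which encodes the beta A subunit of activin and inhibin, varied most of the 10 genes. It stood at 7.96, 55.0 and 19.0 CPM in R63500_1, R63500_2 and R63500_3, and at 7.53, 11.2 and 8.25 CPM in R62848. In R63494 it stood at 0.718 and 0.860 CPM, and in the other 9 libraries it lay between 0.809 and 4.40 CPM. Every library of R63500 and R62848 was therefore above every other library. The counts behind these levels were 166, 989 and 368 in R63500 and 12 and 20 in R63494. R63500 was 34.0-fold above R63494 (edgeR adjusted p = 0.000727), with a mean in R63500 of 27.3 ± 24.6 CPM (SD, n = 3) that 1 library set. Without R63500_2 the fold was 16.8 (adjusted p = 0.000166), and without the whole code R63500 the remaining codes differed by 11.3-fold (adjusted p = 0.000374).

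**Figure D3:**
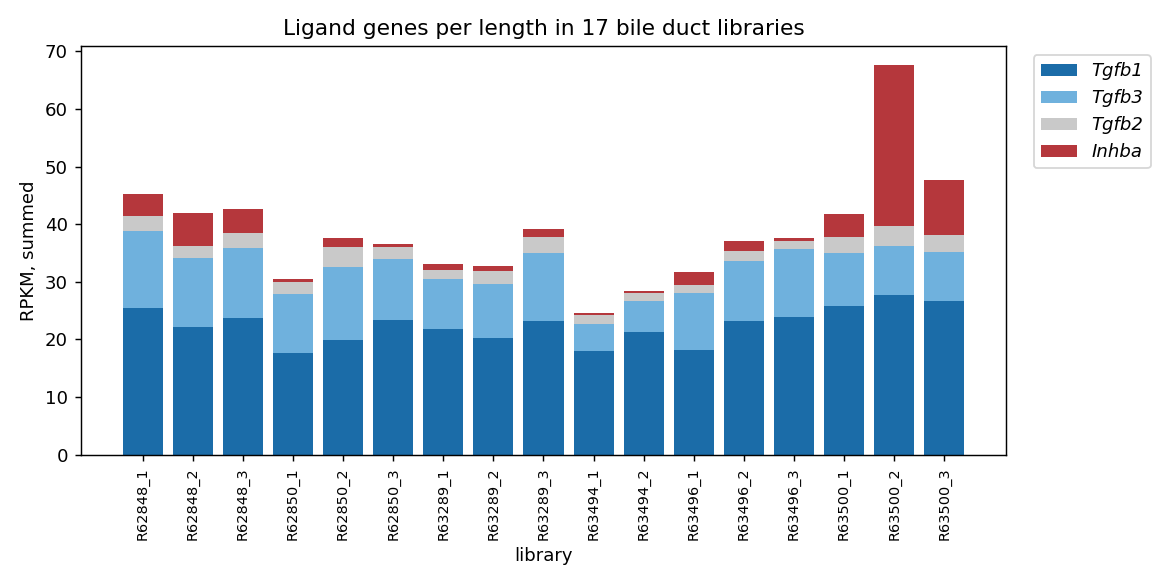
RPKM (CPM per kilobase) of the ligand genes stacked for each of the 17 libraries, from 0. Tgfb1 makes the largest part in 16 of the libraries and is level with Inhba in R63500_2, where Inhba holds 41.1% of the sum.

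The 250 bases before the RefSeq start of 3 ligand genes are shown because these genes include the steadiest and the most variable of the ligands; capitals mark a GC box (GGGCGG) or a TATA motif (TATAAA), searched on both strands. They were taken from the RefSeq promoter table on GRCm38, which is mm10, and lie at chr7:25686752-25687001 on the plus strand for Tgfb1, chr1:186705990-186706239 on the minus strand for Tgfb2 and chr13:16011601-16011850 on the plus strand for Inhba.
Tgfb1: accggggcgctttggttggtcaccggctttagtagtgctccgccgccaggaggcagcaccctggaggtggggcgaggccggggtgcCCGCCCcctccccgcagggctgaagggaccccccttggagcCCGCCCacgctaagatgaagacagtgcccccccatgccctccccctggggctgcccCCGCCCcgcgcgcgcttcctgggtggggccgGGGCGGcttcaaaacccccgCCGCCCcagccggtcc
Tgfb2: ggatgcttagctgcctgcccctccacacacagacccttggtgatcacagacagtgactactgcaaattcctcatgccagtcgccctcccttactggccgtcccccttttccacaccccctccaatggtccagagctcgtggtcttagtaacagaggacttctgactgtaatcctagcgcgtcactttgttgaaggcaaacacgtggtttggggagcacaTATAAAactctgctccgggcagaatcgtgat
Inhba: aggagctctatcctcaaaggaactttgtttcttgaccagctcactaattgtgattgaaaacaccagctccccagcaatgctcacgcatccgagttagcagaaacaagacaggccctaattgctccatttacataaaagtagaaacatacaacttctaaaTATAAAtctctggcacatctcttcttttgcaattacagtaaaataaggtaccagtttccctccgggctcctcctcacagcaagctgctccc
The Tgfb1 window held 5 GC boxes and no TATA motif and was 75.2% G and C. The Tgfb2 window held 1 TATA motif and no GC box (53.6% G and C), and so did the Inhba window (43.2%). Over 32851 promoters of that table, 32.7% held a GC box and 12.4% a TATA motif in the same window, and the median G and C content was 52.4%. The SMAD box CAGAC occurred 2 times in the Tgfb2 window and in 42.2% of all promoters, and neither it nor the AP-1 motif TGANTCA (6.75% of all promoters) was found in the windows of Tgfb1 or Inhba. Of the genes not printed, Smad3 and Tgfbr1 (chr4:47352972-47353221) had windows with 2 GC boxes each and no TATA motif. The Tgfbr2 window and a further Tgfbr1 window (chr4:47385966-47386215) held neither. These matches describe letters and show no binding, and a link between them and the spread of levels was not tested.

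The balance between ligands was compared as a ratio of RPKM within each library, which does not depend on scaling between libraries. In the sum of Tgfb1, Tgfb2 and Tgfb3, Tgfb1 held 55.5% to 76.2%, Tgfb3 18.9% to 34.8% and Tgfb2 4.07% to 9.68%. The ratio of Tgfb3 to Tgfb1 was 0.577, 0.628 and 0.454 in R62850, against 0.261 and 0.248 in R63494. R63500 was also low, with 0.360, 0.307 and 0.323. Over all libraries the ratio of Tgfb3 to Tgfb1 differed between codes by 2.15-fold (permutation test with 100000 resamples, 1-sided, p = 0.00014, adjusted over 5 ratios 0.0007). The ratio of Inhba to Tgfb1 was 0.156, 1.002 and 0.361 in R63500, against 0.0202 and 0.0204 in R63494, and differed between codes by 18.9-fold (permutation adjusted p = 0.0048). This fold was 11.7 without R63500_2 and 29.6 without R63500_1 (permutation adjusted p = 0.0189 and 0.00268). It was 10.2 without the code R63494 and 9.31 without the code R63500, where the call was lost (permutation adjusted p = 0.0144 and 0.0524). The ratio of Tgfb2 to Tgfb1 differed by 1.71-fold between R62850 and R63494 (permutation adjusted p = 0.0340), a call lost in 12 of 17 repeats with 1 library left out.

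Of the receptors, Tgfbr2 showed the tightest agreement within codes. The gene (ENSMUSG00000032440; chromosome 9, from 116087698 to 116175363) encodes the type II receptor that binds active TGF-beta. It stood at 346, 332 and 328 CPM in R62848 and at 298, 280 and 284 CPM in R63500. In R63289 it stood at 219.6, 246 and 232 CPM, in R63496 at 207, 211 and 213 CPM, in R63494 at 189 and 192 CPM and in R62850 at 180, 193 and 199.95 CPM. The libraries of R62848 were above all others, those of R63500 followed without overlap, and the remaining codes lay at or below 246 CPM. Differences between codes held 97.8% of its variance of log2 CPM, and R62848 was 1.76-fold above R63494 (edgeR adjusted p = 7.92e-08). The codes high in Tgfbr2 also had the highest summed endothelial markers, with 466 to 542 CPM in R62848 and 347 to 428 CPM in R63500. The other 4 codes had 239 to 322 CPM. Mean sums in R62848 and R63500 were also the highest for smooth muscle markers (228 and 188 CPM, at most 176 CPM elsewhere). The same held for macrophage markers (833 and 831 CPM, at most 738 CPM elsewhere) and fibroblast markers. The part of these cells in the result was not tested.

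Tgfbr1 (ENSMUSG00000007613; chromosome 4, from 47353222 to 47414931), the type I receptor kinase, followed another order of codes. It stood at 131, 122 and 133 CPM in R63289, against 100.1, 87.2 and 101 CPM in R62850, which is a 1.34-fold difference (edgeR adjusted p = 0.0138). The call was lost without R62850 (1.23-fold, adjusted p = 0.0907) and without R63289 (1.29-fold, adjusted p = 0.0930). In R62848 it averaged 124 ± 10.9 CPM and in R63500 108 ± 4.45 CPM (SD, n = 3 each), so R63500, second of the codes for Tgfbr2, was in the middle of them for Tgfbr1. Tgfbr1 made up 18.2% to 30.6% of the RPKM of the 3 receptor genes and Tgfbr2 66.9% to 77.1%. Tgfbr3 (ENSMUSG00000029287; chromosome 5, from 107106570 to 107289629) encodes betaglycan, a co-receptor that presents ligand, TGF-beta 2 above all, to the type II receptor. It stood at 28.8, 21.0 and 19.6 CPM in R62848, against 9.82 and 14.6 CPM in R63494, a 1.89-fold difference (edgeR adjusted p = 0.00560). That call was lost without R62848_1 (1.66-fold, adjusted p = 0.0508) and without the whole code R62848 (1.41-fold, adjusted p = 0.292). The ratio of Tgfbr3 to Tgfbr2 was 0.0370 to 0.0694 over the 17 libraries and did not pass the test between codes (permutation adjusted p = 0.411, 1.32-fold).

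Of the 10 genes, Smad4 and Smad3 had the smallest spread of log2 CPM over the libraries (SD 0.14 and 0.18). Smad3 (ENSMUSG00000032402; chromosome 9, from 63646767 to 63757994), the receptor-activated SMAD, stood at 88.2, 113 and 90.3 CPM in R63500, against 69.0, 73.1 and 72.4 CPM in R62850. The libraries of R62850 overlapped those of R63496, which had 87.4, 71.2 and 74.0 CPM, and no other code. The fold was 1.36 (edgeR adjusted p = 0.0103), and without R62850 the remaining codes differed by 1.23-fold (adjusted p = 0.186). Smad4 (ENSMUSG00000024515; chromosome 18, from 73639009 to 73703780), the common partner of the receptor-activated SMADs, stood between 60.9 and 83.5 CPM in all libraries. Its code means differed by up to 1.20-fold, between R62848 and R63289, and the test over all codes was at the threshold (edgeR adjusted p = 0.0490); the call was lost in 15 of 17 repeats with 1 library left out, all but those without R62848_1 and R63496_1 (adjusted p = 0.0549 to 0.125). Counts per gene show expression only and carry no statement on mutation or loss of Smad4 or Tgfbr2. Smad7 (ENSMUSG00000025880; chromosome 18, from 75367529 to 75395935), the inhibitory SMAD, lay between 26.4 and 46.4 CPM and was the gene that did not pass (1.32-fold between R63500 and R62850, edgeR adjusted p = 0.0647). It passed without R62848_1, R62848_3 or R62850_2 (adjusted p = 0.0411 to 0.0445), without the whole code R62848 (0.0390) and without the filter on low counts (0.0385). The ratio of Smad7 to Smad3 was 0.451 to 0.714 and did not pass between codes (permutation adjusted p = 0.295, 1.36-fold).

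The single library R63500_2 held the highest level of Tgfb1, Tgfb2, Inhba and Smad3, and R62850_1 the lowest of Tgfb1, Tgfbr2, Smad3 and Smad7. R63500_2 also had the highest sum of fibroblast markers (9703 CPM) and the lowest sum of neutrophil markers (273 CPM, against 380 to 1699 CPM in the other 16). Its sum was also the highest for cholangiocyte markers (9904 CPM) and the lowest for B and plasma cell markers (2592 CPM) and for T cell markers (29.9 CPM). R62850_1 had 5044 CPM of acinar enzyme genes, the least of its code, where R62850_2 had 20399 CPM and R62850_3 116916 CPM. The part of these cells in the levels of both libraries was not tested.

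**Figure D4:**
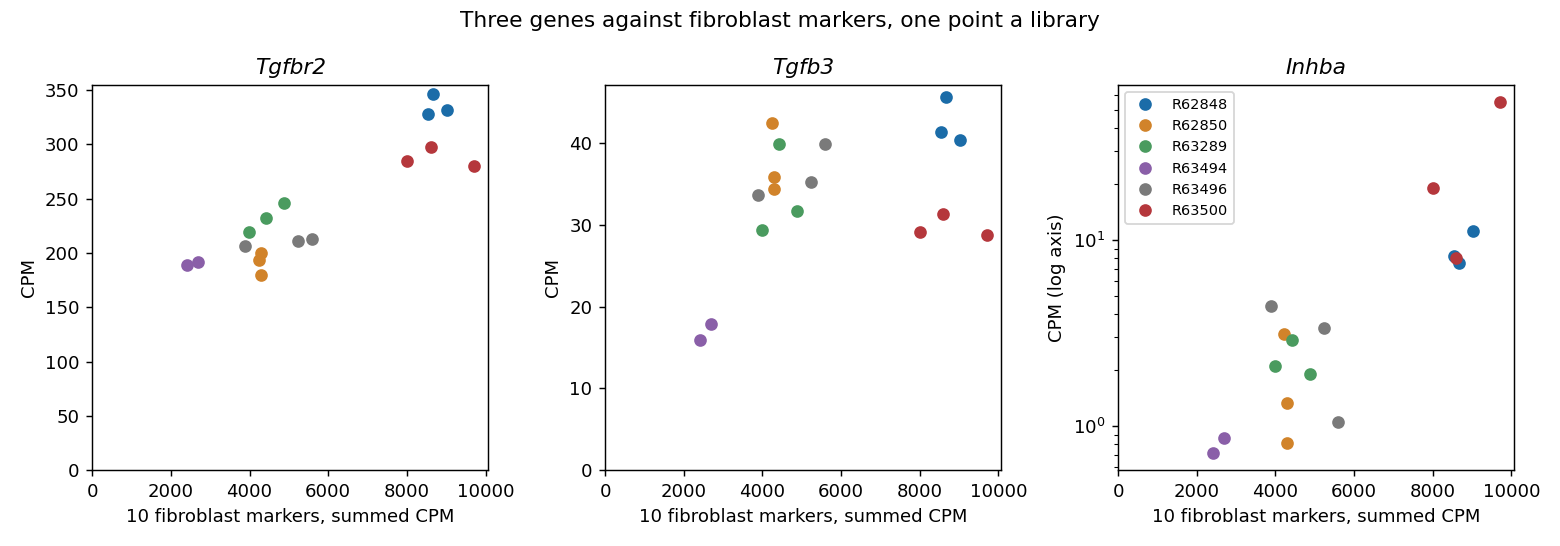
CPM of Tgfbr2, Tgfb3 and Inhba (the last on a log axis) against the summed CPM of 10 fibroblast markers, 1 point a library, coloured by code. For Tgfbr2 and Inhba the libraries of R62848 and R63500, highest in markers, lie above the rest, whereas for Tgfb3 the R63500 libraries lie at 28.8 to 31.3 CPM, below most libraries with fewer markers.

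Genes that hold or release latent TGF-beta differed widely between codes: 17 of 19 tested passed, where 42.2% of all genes tested did. Of these, 10 had at least a 2-fold difference (52.6% of those tested, against 18.4% of all genes tested). The median fold was 2.07, against 1.65. This list and the other pathway lists below were chosen with earlier results of these data known. Their shares are therefore a description and no independent test. Fbn1, the fibrillin that anchors latent complexes in the matrix, averaged 364 ± 59.2 CPM in R62848 and 51.6 ± 0.797 CPM in R63494 (SD, n = 3 and 2), a 7.05-fold difference (edgeR adjusted p = 5.97e-10). Emilin1, a matrix protein that limits processing of pro-TGF-beta, averaged 98.7 ± 7.53 CPM in R63500 and 23.6 ± 2.92 CPM in R63494. Fmod, a small proteoglycan that binds TGF-beta, averaged 195 ± 37.8 CPM in R63500 and 44.0 ± 12.6 CPM in R63494. The most abundant per length were Dcn, Bgn and Itgb1, with median RPKM of 317, 188 and 100.3. Bgn and Dcn encode proteoglycans that also bind the ligand, and Bgn averaged 1823 ± 187 CPM in R62848 and 546 ± 12.1 CPM in R63494, a 3.34-fold difference, where that of Dcn was 1.61-fold. Dcn is also among the fibroblast markers used above. Of the 19 genes, 9 had their highest code mean in R62848, 6 in R63500, 3 in R63289 and 1 in R62850. The shares of all genes tested were 18.6%, 18.3%, 9.59% and 19.5%. The integrin genes Itgb8, Itgb6 and Itgav were highest in R63289 (2.06-, 1.66- and 1.78-fold, edgeR adjusted p = 0.00726, 0.000196 and 7.29e-05). Itgb8 was lowest in R63500, Itgb6 and Itgav in R62850, whereas Itgb1, Itgb3 and Itgb5 were highest in R62848. Ltbp1 was highest in R62850 (2.28-fold). The 2 genes that did not pass were Ltbp4, a latent TGF-beta binding protein, and Nrros, which tethers latent TGF-beta 1 on myeloid cells, with folds of 1.44 and 1.53 (edgeR adjusted p = 0.247 and 0.0793).

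Of 13 related ligands and ligand traps, 9 were tested and 7 passed, all 7 with at least a 2-fold difference, where 42.2% of all genes tested passed and 18.4% passed with 2-fold. Fst and Fstl3 encode follistatin and a related protein, which bind and block activin. Fst averaged 15.6 ± 2.34 CPM in R63500 and 1.68 ± 0.732 CPM in R63289 (SD, n = 3 each), a 9.37-fold difference (edgeR adjusted p = 1.29e-06). Fstl3 averaged 24.5 ± 6.54 CPM in R63500 and 5.95 ± 0.812 CPM in R63494, a 4.12-fold difference (edgeR adjusted p = 4.38e-07). Both were highest in R63500_2, the library with the highest Inhba, at 17.9 and 30.7 CPM. Inhbb, the beta B subunit of activin, was more abundant per length than Inhba (median RPKM 20.6, against 1.57) and averaged 128 ± 14.8 CPM in R62848 and 51.8 ± 11.002 CPM in R63494. Inha, the inhibin alpha subunit, averaged 7.22 ± 2.14 CPM in R62850 and 1.48 ± 0.649 CPM in R63494. Bmp4, a bone morphogenetic protein, averaged 20.5 ± 0.449 CPM in R63500 and 7.01 ± 0.678 CPM in R63494.

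Among related receptors and among the other SMADs and their regulators, no gene that passed reached a 2-fold difference. Of 11 receptor genes tested 6 passed, with 0 at 2-fold and a median fold of 1.73. Of 17 SMAD and regulator genes 7 passed, with 0 at 2-fold and a median fold of 1.28. Of all genes tested 42.2% passed and 18.4% passed with 2-fold, with a median fold of 1.65. Eng, the endothelial co-receptor endoglin, averaged 135 ± 6.01 CPM in R62848 and 74.2 ± 10.3 CPM in R63494, a 1.83-fold difference (edgeR adjusted p = 0.000111). The type I receptors Acvr1b, for activin, and Bmpr1a, for bone morphogenetic proteins, had median RPKM of 18.3 and 14.7; Bmpr1a passed (1.45-fold) and Acvr1b did not (1.16-fold, edgeR adjusted p = 0.507). Acvr1c, Bmpr1b and Acvr2b were low, at no more than 0.944, 2.45 and 4.51 CPM in any library, and did not pass (edgeR adjusted p = 0.104, 0.0565 and 0.483). Of the regulators, the co-repressor genes Ski and Skil passed with folds of 1.28 and 1.64, and Skil averaged 157 ± 23.3 CPM in R63494 (SD, n = 2) and 156.5 ± 20.7 CPM in R62848, against 95.8 ± 12.1 CPM in R62850 (SD, n = 3 each). The ubiquitin ligase gene Smurf1 (edgeR adjusted p = 0.00789) and the deubiquitinase gene Usp15 (1.34-fold, adjusted p = 0.0499) also passed, whereas the phosphatase gene Ppm1a, at a median RPKM of 28.3, had a fold of 1.11, and Smad9 was at no more than 1.15 CPM in any library; neither passed.

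**Figure D5:**
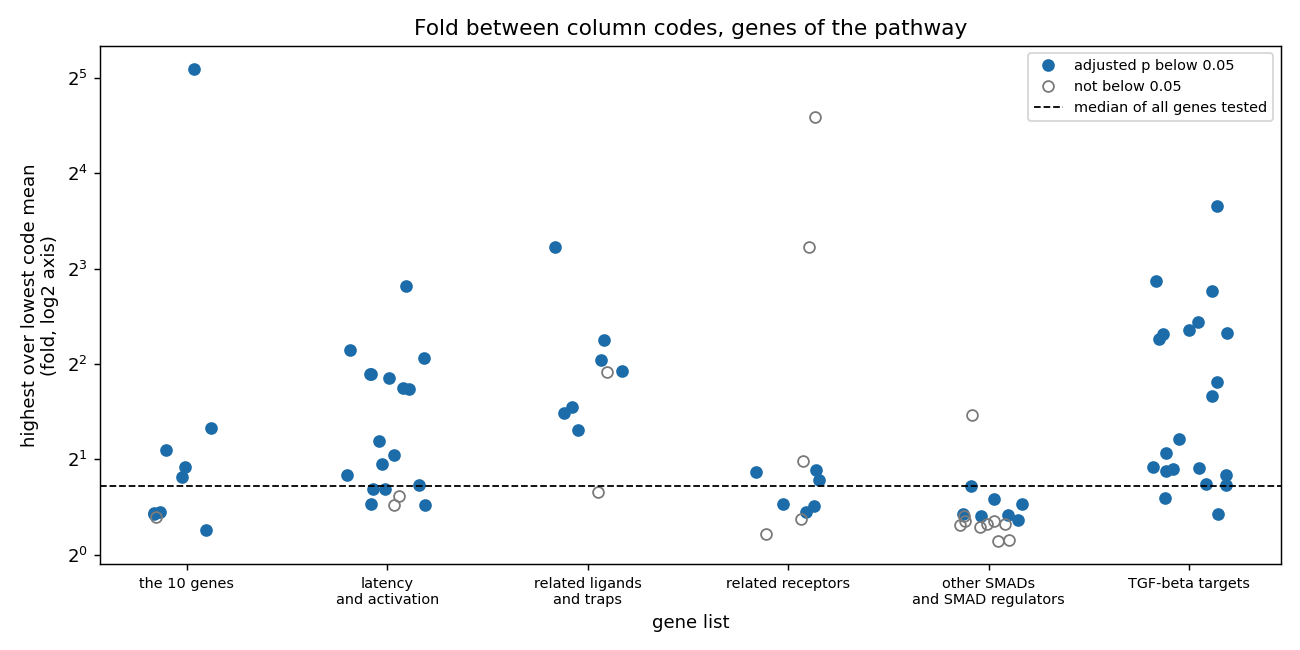
Fold between the highest and the lowest code mean (log2 axis) for the 10 genes and for the tested genes of 5 lists, 1 point a gene, filled where the edgeR adjusted p is below 0.05; the dashed line is the median of all genes tested, 1.65. Most points of the latency and target lists lie above the line and most of the SMAD regulators below it.

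TGF-beta target genes were the list in which every tested gene passed, 21 of 21 where 42.2% of all genes tested did. At 2-fold or more 12 passed (57.1%, against 18.4% of all genes tested), and the median fold was 2.32. This list, too, was chosen with earlier results of these data known, so its shares are a description and no independent test. Loxl2, a collagen cross-linking enzyme, averaged 65.6 ± 14.1 CPM in R63500 and 8.97 ± 1.01 CPM in R62850 (SD, n = 3 each), a 7.31-fold difference (edgeR adjusted p = 6.90e-12). Fn1, fibronectin, averaged 4285 ± 266 CPM in R63500 and 632 ± 189 CPM in R63494 (SD, n = 3 and 2). Col1a1, a collagen chain that is also among the fibroblast markers, averaged 2967 ± 223 CPM in R63500 and 545 ± 167 CPM in R63494. The Id genes, targets of bone morphogenetic protein signalling that TGF-beta can repress, went the other way. Id1 averaged 207 ± 1.75 CPM in R63496 and 116 ± 13.1 CPM in R62848, and Id2 197 ± 19.1 CPM in R63494 and 118 ± 14.99 CPM in R63500. Cdkn2b was also highest in R63494, and lowest in R62850 (1.87-fold, edgeR adjusted p = 0.0276). Junb was highest in R63496 and lowest in R63494 (1.34-fold, edgeR adjusted p = 0.0200). Of the 21 target genes, 10 had their highest code mean in R63500, 6 in R62848, 3 in R63494 and 2 in R63496. The shares of all genes tested were 18.3%, 18.6%, 20.7% and 13.4%. The lowest code mean was in R63494 for 8 and in R62850 for 6, against 23.3% and 19.9% of all genes tested. The summed fibroblast markers were also highest in R63500 and R62848 and lowest in R63494, and of this list Acta2 and Tagln are also smooth muscle markers. The part of these cells was not tested. Against these, the feedback inhibitor Smad7, itself a target, differed by 1.32-fold and did not pass.

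Likeness of pattern was measured by Pearson correlations of log2 CPM over the 6 code means and over the 17 deviations from the code means, which share library and depth; the genes with the largest value of the smaller of these were named, as a description drawn from 19412 genes. Closest to Inhba were Ahnak (0.939 over code means and 0.861 within codes) and Ccdc86 (0.986 and 0.859). Closest to Tgfb1 were Shmt2 and Ube2s, to Tgfb2 Gm6104 and Clca5, and to Tgfb3 Marcksl1 and Rab6b. Closest to Tgfbr1 were Jak2 (0.954 and 0.883) and Mir6386, to Tgfbr2 Gm26775 and Arhgef25, and to Tgfbr3 Kif26a and Rusc2. Closest to Smad3 were 9230112E08Rik and Abl2, to Smad4 Gm28941 and Cep350 (0.929 and 0.912), and to Smad7 Irf2bpl and Ddx54.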

How the data were processed

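The deposited read counts per gene, whole and not normalized, were used as the authors gave them. Per the submitters' processing notes, the tools were featureCounts, STAR 2.6.1c and edgeR 3.40.2, on mm10. No source used here gives the annotation release or the strand setting, so overlapping and antisense genes are uncertain. A further 17 columns of per-sample values were not used. Column names matched no sample title, so libraries are named by column. The 10 genes, the 5 pathway lists (83 genes) and the 10 marker lists were chosen with earlier results of these data known; 3 list genes were matched by an older symbol.

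Genes were kept with filterByExpr by code (19412 of 43346), normalized with TMM and fitted with robust quasi-likelihood in edgeR 4.0.16 (R 4.3.3), with the code as factor, after a test on simulated counts. RPKM used the table's gene lengths; log2 CPM used a prior count of 2. Named are the 10 genes and, in each pathway list, the 3 of highest median RPKM and the 3 whose fold between codes was largest; likeness named 2 genes for each of the 10. A gene that this rule names among the targets is not reported here. Ltbp1, Ltbp4, Nrros, Itgav, Itgb3, Itgb5, Itgb6, Itgb8, Cdkn2b and Junb were chosen with their values in view. Ratios were tested by permuting libraries over codes. RefSeq promoters were taken for 6 of the 10 genes. Smad4 and Smad7, on chromosome 18, were left out of the search, and Tgfb3 and Tgfbr3 had no entry. Alternatives were other normalizations, no filter, DESeq2 1.42.0, limma 3.58.1, and leaving out libraries and codes.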

Additional observations from a re-analysis of the deposited data

How the results depend on the processing

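The count of the 10 genes that differed between codes was 9, and 7 to 9 with 1 library left out, with another normalization or filter, or with DESeq2 or limma. Leaving out a whole code moved it to 5 without R62850 (Tgfb1, Tgfbr1, Smad3 and Smad4 no longer passed) and to 7 to 9 otherwise. The count with a 2-fold difference was 3, and 2 to 4 with 1 library left out; it fell to 1, Inhba, without R63494, a code of 2 libraries. Of the 83 pathway genes, 6 of them not tested, 29 passed with 2-fold, and 23 to 30 under all alternatives run; of all genes tested 18.4% did, and 12.8% to 21.2% under these alternatives. The call on the ratio of Tgfb2 to Tgfb1 was lost without R62848 (1.71-fold), R63494 (1.69-fold), R63496 (1.71-fold) or R63500 (1.71-fold), and with 1 library left out the fold was 1.57 to 1.96. The ratio of Inhba to Tgfb1 differed by 9.31-fold without R63500 and no longer passed (permutation adjusted p = 0.0524). The Smad4 call was also lost with median-of-ratios or upper-quartile factors, without the filter and with DESeq2 (adjusted p = 0.0569 to 0.146), and that of Tgfb1 with upper-quartile factors (0.0513). Smad7 passed without the filter (0.0385). The cause of these changes was not tested. The median RPKM moved by less than 1 SD of the libraries in all 180 repeats. Leaving out 1 library moves a median only between neighbouring values, and the SD was wide for Inhba (6.62 RPKM, median 1.57). These repeats could therefore hardly have shown a change. The comparison with the authors' own length-scaled columns was not run, since they could not be mapped beside the counts. No paired analysis was possible because the labels give 1 group. Codes hold 2 or 3 libraries, and the lowest Inhba levels rest on as few as 12 counts, so its fold is the least precise of the 10.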
